A study of Mus musculus with 48 samples.

Results

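The 49 genes described here encode, in the nucleus, the subunits of respiratory complexes II, III, IV and V and cytochrome c, the mobile electron carrier. They were chosen by gene symbol among the protein-coding genes, as Sdha to Sdhd, Cyc1, Cycs and every symbol that begins with Uqcr, Cox4, Cox5, Cox6, Cox7, Cox8 or Atp5, out of 50600 genes listed in the count tables. The rule itself used no measured value, but it was set with earlier results of these data known. It gave 4 genes of complex II, 9 of complex III (with Cyc1), Cycs alone as the mobile carrier, 18 genes of complex IV and 17 of complex V. Of these 49 genes, 44 had enough counts to be tested.

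The mPDAC line, derived from a pancreatic ductal adenocarcinoma of a mouse and labelled with the genetic background FVB/N x C57BL6 and an age of 8 weeks, was left non-treated (cultures 1, 2 and 4) or given 50 µM of N6L, a pseudopeptide that binds nucleolin, for 48 h (cultures 1, 2 and 3). Each of the 6 lysates, cleared of nuclei and mitochondria by centrifugation, gave a cytoplasmic library and a library from the pooled polysomal fractions of a sucrose gradient, 12 libraries in all. All cultures came from the one line, so the p-values measure the spread between cultures of that line. Levels are given in counts per 1000000 counts (CPM) after TMM scaling, a scaling that sets the bulk of genes level between libraries, and every value is thus relative to the other mRNAs of the same library.

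Respiratory complexes II to V sit in the inner mitochondrial membrane. Complex II oxidises succinate, complex III passes the electrons on to cytochrome c, complex IV hands them to oxygen, and complex V, the ATP synthase, uses the proton gradient built on the way to make ATP. Complex II is encoded wholly in the nucleus, whereas complexes III, IV and V each also hold subunits made inside the mitochondrion, so their nuclear mRNAs must be translated in the cytoplasm and their products imported and joined to the mitochondrial ones. Several nuclear subunits of complex IV exist as a widespread and a muscle, testis or lung form.

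Libraries held from 19519911 to 44972333 counts. The mRNAs of the 49 genes made up 1.01 to 1.36% of the counts in non-treated cytoplasm and 0.793 to 0.827% in N6L cytoplasm, so the ranges did not overlap. In polysomes the shares were 1.20 to 1.64% without and 1.07 to 1.47% with N6L, and these ranges did overlap. Some libraries stood apart for these genes, and the same libraries also stood apart in how level went with transcript length over all genes (given below). Non-treated culture 4 had the highest share in both non-treated fractions, and N6L culture 3 had the highest in N6L polysomes. Of 8 markers of ductal carcinoma cells, 7 were tested, and their summed level was 6520 to 10700 CPM over the 12 libraries. Summed markers of endothelial cells, fibroblasts and leukocytes did not exceed 2.23 CPM in any library. Of 4 acinar markers, 3 were at 0, but Cela1 was at 27.6 to 82.7 CPM over the 12 libraries. The cytoplasm of N6L culture 2 has 3 of 4 technical replicates for which one label names culture 1, and these were kept with culture 2, as in their titles.

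**Figure D1:**
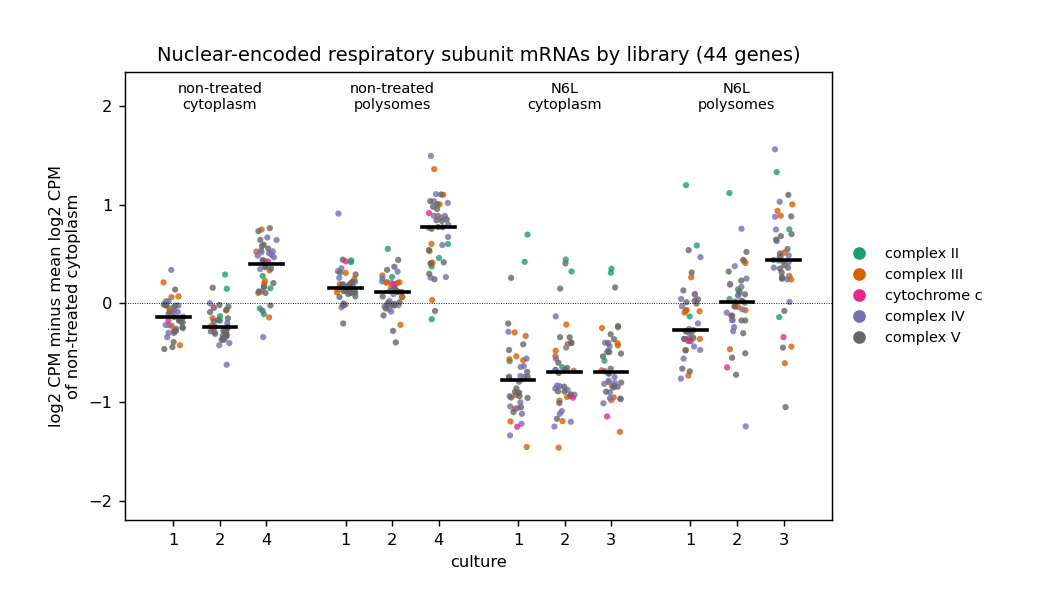
Level of each of the 44 tested genes in each library, as log2 CPM minus the gene's mean log2 CPM in non-treated cytoplasm (vertical axis), by culture (horizontal axis). Each point is a gene, coloured by complex, and the black bars are medians, which lie at -0.78, -0.69 and -0.70 in N6L cytoplasm and at -0.27, 0.01 and 0.44 in N6L polysomes.

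Levels of different genes were compared per kilobase of transcript. In non-treated cytoplasm, Cox8a and Cox4i1, both subunits of complex IV, stood highest with 936 and 916 CPM per kb. In complex V the highest were Atp5b, the catalytic beta subunit, with 648 ± 51.6 CPM per kb (SD, n = 3 cultures), Atp5e, the epsilon subunit of the rotor, with 642 ± 320, and Atp5g3, one of 3 genes for the membrane c subunit, with 630 ± 151, which did not differ beyond their spread. In complex III, Uqcr10 (540 CPM per kb) and Uqcrh (452 CPM per kb), both small subunits, led on the transcripts used here. Complex II was lower than these leading genes, from 29.0 CPM per kb for Sdha to 141 CPM per kb for Sdhb, and Cycs stood at 31.3 CPM per kb. Other genes of complexes III and V lay within the range of complex II, such as Uqcrc2 (89.7 CPM per kb) and Atp5g2 (137 CPM per kb). These levels depend on the annotated transcript. Atp5g1 was at 24.0 CPM per kb with the lowest-numbered principal transcript of 4715 bases, but another principal transcript of the same gene has 596 bases. For Uqcrq the lengths are 1521 and 405 bases, and its level is 341 CPM per kb with the first and 1280 CPM per kb with the second, which would be the highest of complex III and of the 44 tested genes.

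Tissue-restricted isoforms were nearly silent in these cells. Cox7b2, Cox8b and Cox8c were at 0 counts in all 12 libraries, Cox6b2 had at most 2 counts and Cox4i2 at most 3 counts in any library, and none of these 5 genes could be tested. The muscle forms Cox6a2, with a mean of 0.601 CPM in non-treated cytoplasm, and Cox7a1, with 1.76 CPM, passed the filter on low counts at the bottom of the range. Their widespread counterparts Cox6a1 and Cox7a2 were at 407 and 211 CPM. Atp5s, a factor of the ATP synthase coupling region, was at 5.77 CPM. Atp5l, the g subunit, was at 2.79 CPM. Its counts are uncertain because the annotation lists pseudogenes named after it. The sources used here do not say how reads with several matches were counted. Pseudogenes named after Cycs, Uqcrh and Atp5k are listed too, and how alike these sequences are was not measured.

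Promoters were searched because many of these genes changed level together. RefSeq promoter sequences (GRCm38.p6, 250 bases before to 50 bases after the start of the gene) were found for 37 of the 49 genes. They were matched by symbol, or else by a synonym of a RefSeq gene that overlaps the gene on the same chromosome. The letters CCGGAAG, the core that GABP and other ETS factors recognise, were found on one of the strands in 12 of these 37 promoters (32.4%), against 9.93% of all 27025 genes with a promoter. The 10-letter palindromic core of NRF1 sites, in capitals in the last run below, was in 4 of 37 (10.8%) against 1.07% of all. The 11-letter core of YY1 sites was in 0 of 37, against 0.755% of all. These background shares include genes with few or no counts in these cells, and shares over expressed genes alone were not computed. The runs below show the motif in capitals in the promoters of 5 genes whose levels are described next, 30 bases each and written 5′ to 3′ on the strand of the gene. Before any adjustment for length, Sdhd and Sdhb, of the same complex, moved in opposite directions. Uqcr11, Cox8a and Cox6a1 were then among the genes with the larger cytoplasmic decreases. With the adjustment described below, Sdhb, Uqcr11, Cox8a and Cox6a1 were not called. The 5 genes do not stand for all 12 with the GABP letters, as Uqcrh and Atp5l carry them too and did not pass in the cytoplasm. CTTCCGG is CCGGAAG read from the other strand.
Sdhd, chr9:50603877-50603906, minus strand, GABP letters: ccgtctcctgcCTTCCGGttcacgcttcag
Sdhb, chr4:140961266-140961295, plus strand, GABP letters: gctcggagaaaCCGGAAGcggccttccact
Uqcr11, chr10:80406869-80406898, minus strand, GABP letters: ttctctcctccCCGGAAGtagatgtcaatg
Cox8a, chr19:7217603-7217632, minus strand, GABP letters: tttccgaaataCTTCCGGctcgggcgtccg
Cox6a1, chr5:115348956-115348985, minus strand, GABP letters: ccccatttccgCTTCCGGcgcgccggtgta
Cox6a1, chr5:115349101-115349130, minus strand, NRF1 letters: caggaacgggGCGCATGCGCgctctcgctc
A match of letters is a description of the sequence and does not show that a factor binds there. Of the 12 tested genes with the GABP letters, 8 fell in N6L cytoplasm (median log2 fold change -0.94). Of the 22 tested genes whose promoter lacks them, 12 fell (median -0.68). Among all genes tested, 13.8% fell. The share that fell among all genes with the letters was not counted, and a link between letters and fall was not tested. Sdhd, the only one of the 49 genes that rose there before any adjustment for length, carries the same letters as Sdhb, which fell.

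The first comparison asked how the cytoplasmic level of each mRNA differed after N6L. Levels of most of these mRNAs were lower. Of the 44 tested genes, 27 fell and 1 rose at a false discovery rate (FDR) under 0.05 (quasi-likelihood F test of edgeR, Benjamini-Hochberg adjusted over 13889 genes). SE stands for the standard error of a log2 value. Among all genes tested, 13.8% fell, 14.5% rose and 28.3% passed in either direction. The median log2 fold change of the 44 genes was -0.78, against 0.04 over all genes. For 39 of them the 3 N6L cultures lay below the 3 non-treated cultures without overlap (25.6% of all genes), and for 2 they lay above (29.3% of all genes). In bulk libraries, fewer cells with an mRNA and less of it per cell cannot be told apart. Leaving out N6L culture 1 left 18 genes past the test, and leaving out N6L culture 2 left 11. The share of all genes that passed with a culture left out was not counted. The 10 genes that passed with any 1 of the 6 cultures left out were Uqcrq, Uqcrb, Cycs, Cox5b, Cox7c, Cox6a1, Cox5a, Cox7a2l, Atp5d and Atp5j.

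**Figure D2:**
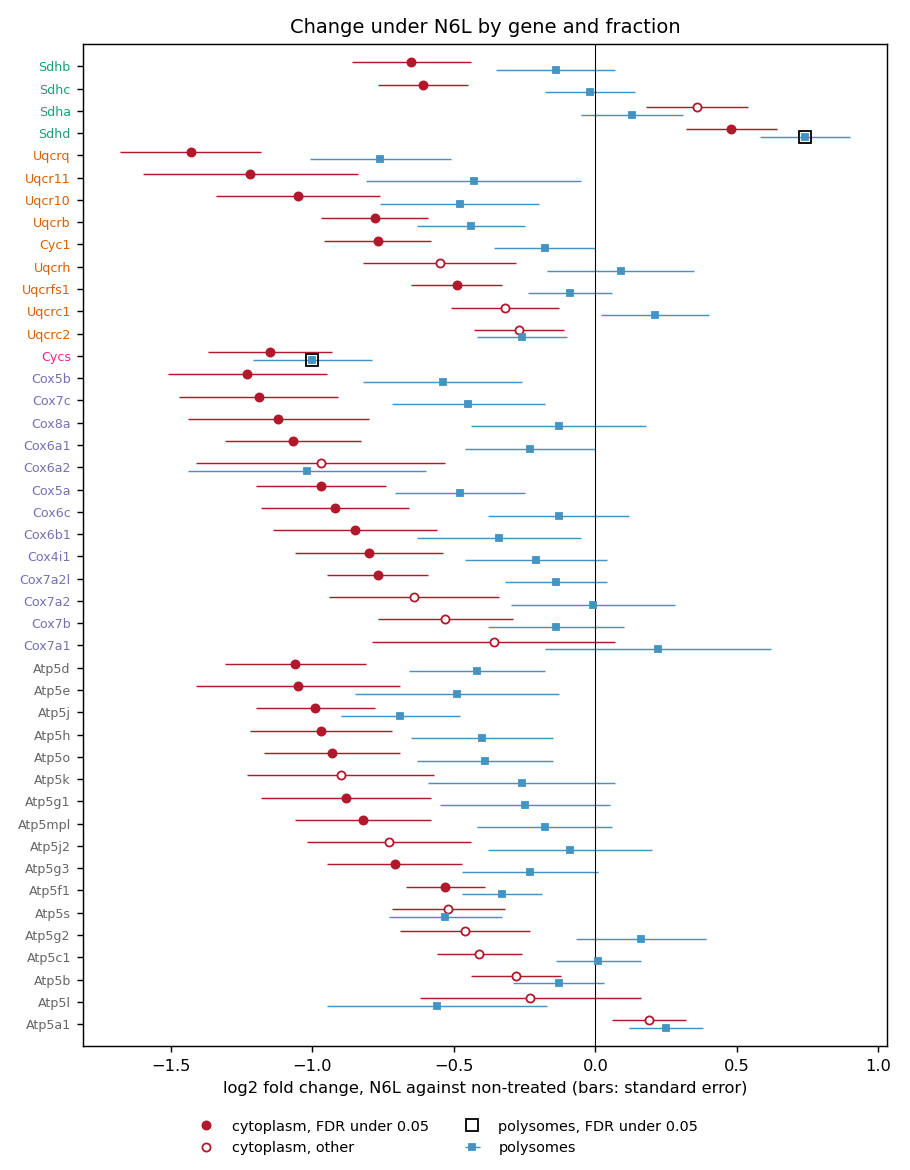
Log2 fold change of N6L against non-treated cultures (horizontal axis) for each tested gene (vertical axis, label colours by complex), with circles for the cytoplasm, squares for the polysomes and bars for standard errors. Filled circles and boxed squares passed an FDR of 0.05. Of the 28 filled circles only that of Sdhd lies right of 0, and Sdhd and Cycs hold the 2 boxed squares.

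In the cytoplasm and before any adjustment for length, complex II was the only complex whose tested subunits passed in both directions. With each library adjusted for length and GC content (described below), complex V passed in both directions as well. There Atp5g2 was higher, and Atp5d, Atp5f1 and Atp5g1 were lower. Sdhd encodes the small membrane anchor of succinate dehydrogenase. In cytoplasm it was at 89.6, 130 and 102 CPM in non-treated cultures 1, 2 and 4 and at 172, 144 and 131 CPM in N6L cultures 1, 2 and 3. The lowest N6L culture lay just above the highest non-treated one, and Sdhd rose by a log2 fold change of 0.48 (SE 0.16, FDR 0.0403 by edgeR). This cytoplasmic call did not hold without non-treated culture 1 (FDR 0.174) or 4 (0.143), without N6L culture 1 (0.143) or 2 (0.161), with size factors of the RLE kind (0.0518), or with only the 2 cytoplasmic groups in the fit (0.0528).

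Sdhb and Sdhc encode the iron-sulphur subunit and the other membrane anchor. Sdhb was at 144, 146 and 194 CPM in non-treated cytoplasm and at 94.5, 100 and 114 CPM with N6L. It fell by 0.65 on the log2 scale (SE 0.21, FDR 0.0331 by edgeR). The call was lost without any one of non-treated cultures 1, 2 and 4 and N6L cultures 1 and 2. It was also lost with each library adjusted for length and GC content (log2 value -0.19, FDR 0.192 by edgeR). Sdhc was at 191, 167 and 210 CPM without and at 126, 121 and 126 CPM with N6L. It fell by 0.61 (SE 0.16, FDR 0.0143 by edgeR), without overlap between the groups, and the call was lost without non-treated culture 1 or N6L culture 2. Sdha encodes the flavoprotein that binds succinate. It was at 81.6, 92.9 and 77.7 CPM without and at 112, 105 and 107 CPM with N6L, above in all 3 cultures, but its log2 value of 0.36 did not pass (SE 0.18, FDR 0.144 by edgeR).

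**Figure D3:**
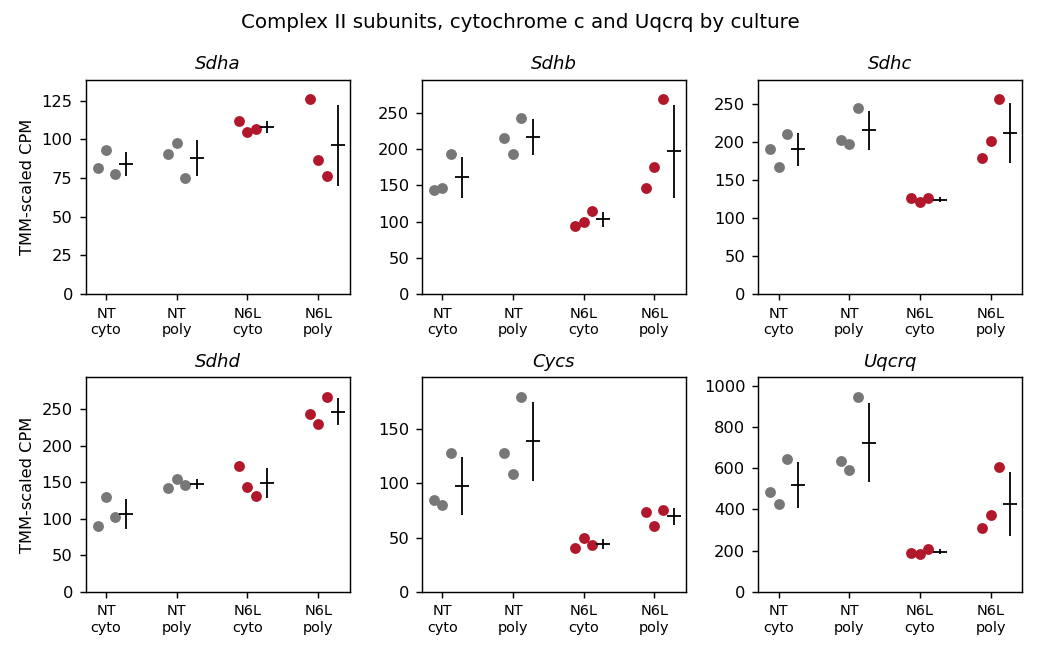
TMM-scaled CPM (vertical axes, from 0) of the 4 subunits of complex II, of Cycs and of Uqcrq in non-treated (NT, grey) and N6L (red) cytoplasm and polysomes, 1 point per culture, with the mean and SD of 3 cultures beside them. The N6L points of Sdhd lie above the non-treated ones in both fractions, and those of Cycs lie below in both.

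In complex III, 6 of 9 tested genes fell in the cytoplasm and 0 rose, and in all 9 the groups did not overlap. Uqcrq, a small subunit next to cytochrome b, had the lowest log2 value of the 44 genes before any adjustment for length. It was at 484, 427 and 644 CPM in non-treated cytoplasm and at 186, 185 and 207 CPM with N6L. Every N6L culture was thus below every non-treated one, a log2 fold change of -1.43 (SE 0.25, FDR 0.00238 by edgeR). With each library adjusted for length and GC content the value was -1.19, and -0.56 when the adjustment took its transcript of 405 bases (FDR 0.00153 by edgeR), so that Cycs stood lower in both. Uqcr11, another small subunit, was at 124, 133 and 281 CPM without and at 72.7, 72.9 and 84.5 CPM with N6L. Culture 4 was high among its non-treated values, and the fall of 1.22 on the log2 scale (SE 0.38, FDR 0.0302 by edgeR) did not pass without non-treated culture 4 or without N6L culture 1 or 2.

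The other small subunits Uqcr10 and Uqcrb fell by 1.05 and 0.78 on the log2 scale. Cyc1, the cytochrome c1 that gives electrons to cytochrome c, went from 280 ± 36.0 to 164 ± 21.4 CPM (SD, n = 3 cultures each) and fell by 0.77. Uqcrfs1, the Rieske iron-sulphur protein, fell by 0.49. Uqcrh did not pass at a log2 value of -0.55 (FDR 0.132 by edgeR). The 2 large core proteins were nearest to 0, with log2 values of -0.32 for Uqcrc1 and -0.27 for Uqcrc2, and did not pass either.

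Cycs encodes cytochrome c, which shuttles electrons in the space between the membranes and, once released, takes part in apoptosis. In cytoplasm it was at 84.8, 80.0 and 128 CPM without and at 40.1, 49.2 and 43.1 CPM with N6L. The groups did not overlap, and the log2 fold change was -1.15 (SE 0.22, FDR 0.00315 by edgeR).

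In complex IV, 9 of 13 tested genes fell in the cytoplasm and 0 rose, and the median log2 fold change was -0.92. Cox5b, a subunit on the matrix side, had the lowest value. It was at 200, 158 and 302 CPM without and at 83.9, 89.3 and 109 CPM with N6L, a log2 fold change of -1.23 (SE 0.28, FDR 0.00776 by edgeR) with all N6L cultures below. Cox7c, a small membrane subunit, was at 97.4, 88.8 and 160 CPM without and at 47.7, 48.4 and 55.1 CPM with N6L and fell by 1.19. Cox8a, the most abundant per kilobase, was at 468, 377 and 699 CPM without and at 229, 229 and 254 CPM with N6L and fell by 1.12, a call lost without N6L culture 2.

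Cox6a1, the widespread form of a regulatory subunit, went from 407 ± 139 to 194 ± 14.2 CPM and fell by 1.07. Its muscle form Cox6a2 stayed under 1 CPM in all cytoplasmic libraries (log2 value -0.97, FDR 0.106 by edgeR). Cox4i1, which is needed for assembly of the complex, went from 682 ± 159 to 393 ± 14.5 CPM and fell by 0.80, a call that leaving out non-treated culture 1 or 4 or N6L culture 1 or 2 removed. Cox6b1 fell by 0.85, a call removed by leaving out non-treated culture 4 or any one N6L culture. Among the relatives of Cox7a, Cox7a2l, a factor that joins complexes III and IV, fell by 0.77 (FDR 0.00817 by edgeR). Cox7a2 (log2 value -0.64, FDR 0.111), Cox7b (-0.53, FDR 0.111) and the low Cox7a1 (-0.36, FDR 0.543) did not pass in the same test.

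In complex V, 9 of 17 tested genes fell in the cytoplasm and 0 rose. Atp5d, the delta subunit of the rotor, was at 338, 357 and 538 CPM without and at 207, 178 and 206 CPM with N6L, without overlap, and fell by 1.06 (SE 0.25, FDR 0.00814 by edgeR). Atp5j, of the stalk that holds the catalytic head, fell by 0.99. Neither of the large subunits of the catalytic head passed. Atp5b was at 1150, 1220 and 1350 CPM without and at 1080, 941 and 1060 CPM with N6L, just without overlap and with a log2 value of -0.28 (FDR 0.186 by edgeR). Atp5a1, the alpha subunit of the head, was at 613, 753 and 664 CPM without and at 807, 748 and 754 CPM with N6L. Its groups overlapped, and its log2 value of 0.19 did not pass (FDR 0.300 by edgeR).

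The c subunit of the membrane rotor has 3 genes that encode the same mature protein behind different import signals. Atp5g1 went from 113 ± 40.6 to 61.4 ± 5.16 CPM and fell by 0.88, and Atp5g3 went from 450 ± 108 to 275 ± 14.3 CPM and fell by 0.71. Atp5g2 went from 60.6 ± 8.19 to 43.9 ± 5.22 CPM, a log2 value of -0.46 that did not pass (FDR 0.141 by edgeR). The call of Atp5g1 was lost without non-treated culture 1 or 4 or N6L culture 1 or 2, and that of Atp5g3 without any culture but non-treated culture 2. Whether the 3 genes differ from each other in their change was not tested.

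Transcript length moved with these values. The 44 tested genes have short transcripts, with a median of 823 bases against 2667 bases over all genes tested. In all 3 N6L cytoplasmic libraries the level of a gene relative to its mean over libraries rose by 0.27 to 0.31 log2 units per doubling of length. In non-treated cultures 1, 2 and 4 this slope was 0.02, 0.05 and -0.16 in cytoplasm and -0.14, -0.08 and -0.28 in polysomes. In polysomes of N6L cultures 1, 2 and 3 it was 0.03, -0.06 and -0.26. Over all genes, Spearman's rho between length and the cytoplasmic log2 fold change was 0.50 (n = 13867 genes from the same 6 libraries), and over the 44 genes it was 0.35. Among all genes with transcripts under 600 bases, 31.8% fell, with a median log2 value of -0.67, and among those of 600 to under 1000 bases 37.4% fell, with a median of -0.58. Of the genes described here, 9 of 14 fell in the shorter class (median -0.91) and 9 of 12 in the longer (median -0.95).

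When each library was first adjusted for length and GC content, 9 of the 44 genes fell and 2 rose in the cytoplasm (14.9% of all genes fell and 14.0% rose), and the median log2 value of the 44 genes moved from -0.78 to -0.21. Genes that fell with and without the adjustment were Uqcrq, Cycs, Cox5b, Cox7c, Cyc1, Sdhc, Atp5d, Atp5f1 and Atp5g1. Sdhd rose in both, with an adjusted log2 value of 0.80 (FDR 0.00345 by edgeR). Atp5g2, with a transcript of only 441 bases, changed sign from -0.46 to an adjusted 0.35 that passed. Atp5g1 was not called when the adjustment took its shorter transcript. Whether the dependence on length arose in the cells or in the libraries was not tested.

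**Figure D4:**
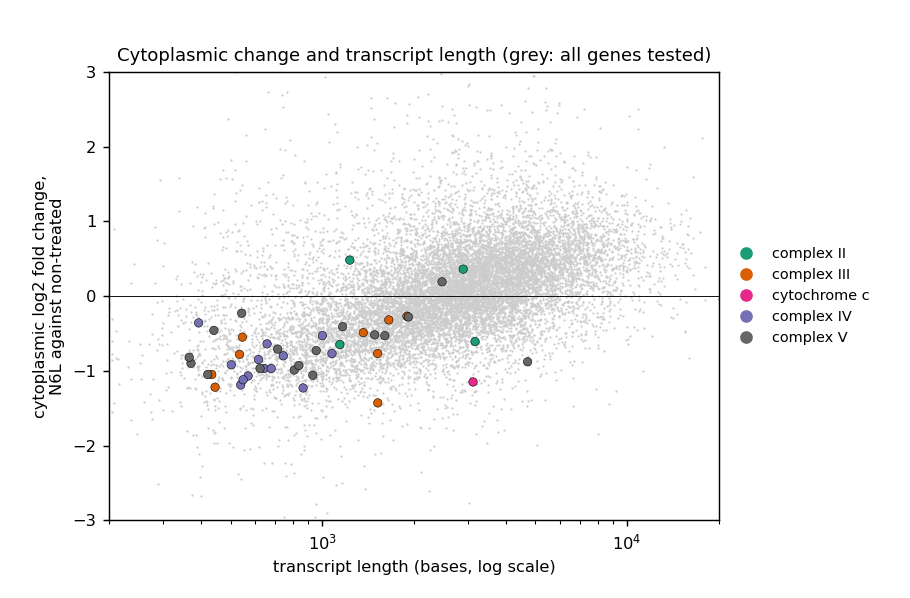
Cytoplasmic log2 fold change of N6L against non-treated cultures (vertical axis) against transcript length in bases (horizontal axis, log scale), with all tested genes in grey (97 lie outside the plotted range) and the 44 genes coloured by complex. Short transcripts of either kind lie lower, and Sdhd and Cycs, at 1231 and 3123 bases, lie on opposite sides of 0, both within the spread of the grey points.

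The second comparison asked the same of the polysomal mRNAs. Here 2 of the 44 genes passed, 1 in each direction, where 9.67% of all genes tested did (6.01% higher and 3.66% lower). The median log2 fold change was -0.23 against 0.00 over all genes, and 36 of 44 values were below 0, as were 49.9% of all genes. In 5 genes the N6L cultures lay below the non-treated ones without overlap (11.9% of all genes) and in 2 above (13.7% of all genes).

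Both genes that passed had passed in the cytoplasm in the same direction. Sdhd was at 142, 155 and 146 CPM in non-treated polysomes and at 243, 230 and 267 CPM with N6L, far from overlap. It rose by a log2 fold change of 0.74 (SE 0.16, FDR 0.0137 by edgeR). Cycs was at 128, 109 and 180 CPM without and at 73.3, 60.9 and 75.3 CPM with N6L and fell by 1.00 (SE 0.21, FDR 0.0130 by edgeR). Without non-treated culture 1 or without N6L culture 2, neither passed (FDR 0.0730 and 0.0804 for Sdhd, 0.0552 and 0.0966 for Cycs, by edgeR). With only the 2 polysomal groups in the fit, Sdhd did not pass (FDR 0.0559 by edgeR). With N6L culture 3 left out 4 genes passed, and the share of all genes in that fit was not counted.

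Among the rest, Cox6a2 had the lowest value (-1.02) at a level of at most 1.17 CPM, and Uqcrq (-0.76, FDR 0.0680 by edgeR) and Atp5j (-0.69, FDR 0.0552) came next. Uqcrq was at 633, 592 and 945 CPM without and at 307, 370 and 604 CPM with N6L, so that 1 N6L culture overlapped the non-treated range. At the other end stood Atp5a1 (0.25), Cox7a1 (0.22) and Uqcrc1 (0.21), which did not pass. After the adjustment for length and GC content, 5 of the 44 genes passed in polysomes, 1 higher and 4 lower (10.9% and 10.5% of all genes).

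The next comparisons set polysomes against cytoplasm within each treatment, as the ratio of the level of an mRNA in the 2 fractions. Since each level is relative to the other mRNAs of its library, the ratio is not the share of an mRNA on ribosomes, and a shift common to all mRNAs does not show in it. In non-treated cultures 0 of the 44 genes passed with edgeR, where 0.209% of all genes did, and 3 had an unadjusted p under 0.05 (13.4% of all genes). With the lysate as a block, 26 had one (24.7% of all genes) and still 0 passed, the smallest FDR being 0.0799. With DESeq2, 0 passed as well. All the same, 42 of the 44 log2 values were above 0, as were 53.7% of all genes, with a median of 0.34 against 0.03 over all genes. The highest were Cox7a1 (0.72), Uqcr11 (0.59), Uqcr10 (0.52) and Cox7a2 (0.52), and the lowest Atp5s (-0.23), Uqcrc2 (-0.01), Sdha (0.06) and Uqcrb (0.11). In 4 genes the polysomal cultures lay above without overlap (9.59% of all genes).

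In N6L cultures 35 of the 44 genes were higher in polysomes than in cytoplasm at an FDR under 0.05 and 0 were lower, where 18.4% of all genes were higher and 20.6% lower. The median log2 value was 0.93 against 0.03 over all genes. By complex, the counts were 3 of 4 in complex II, 7 of 9 in complex III, Cycs, 12 of 13 in complex IV and 12 of 17 in complex V. Cox8a was at 229, 229 and 254 CPM in cytoplasm and at 416, 559 and 915 CPM in polysomes of N6L cultures 1, 2 and 3. The fractions did not overlap, and the log2 value of 1.41 was the highest of the 44 (SE 0.32, FDR 0.00656 by edgeR). Uqcr11 (1.39), Cox7a1 (1.30) and Cox7c (1.15) followed. At the low end Sdha was at 112, 105 and 107 CPM in cytoplasm and at 126, 86.4 and 76.2 CPM in polysomes, which overlapped, with a log2 value of -0.17 (FDR 0.475 by edgeR). Atp5s (-0.23), Uqcrc2 (0.01) and Atp5l (0.19) did not pass either.

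The count for N6L cultures was much lower when either of 2 of them was left out. Without N6L culture 2 or without N6L culture 3, 7 genes passed instead of 35. The share of all genes that passed in those fits was not counted. Sdhb, Sdhc, Cyc1, Uqcrq and Atp5g2 passed with any 1 of the 6 cultures left out. The median log2 ratio of the 44 genes was 0.58, 0.79 and 1.20 in N6L cultures 1, 2 and 3 and 0.37, 0.33 and 0.38 in non-treated cultures 1, 2 and 4. Every N6L culture was thus above every non-treated one, and the N6L cultures spread much more. The slope of level on length over all genes also differed between their polysomal libraries (0.03, -0.06 and -0.26 per doubling). The median over all genes lay between -0.02 and 0.06 in the 6 cultures. With the adjustment for length and GC content, 10 of the 44 genes passed, all higher (8.37% of all genes were higher and 8.07% lower), and the median fell to 0.28. With the lysate as a block as well, 20 were higher (15.9% of all genes) and 1, Atp5j, was lower (15.6% of all genes).

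**Figure D5:**
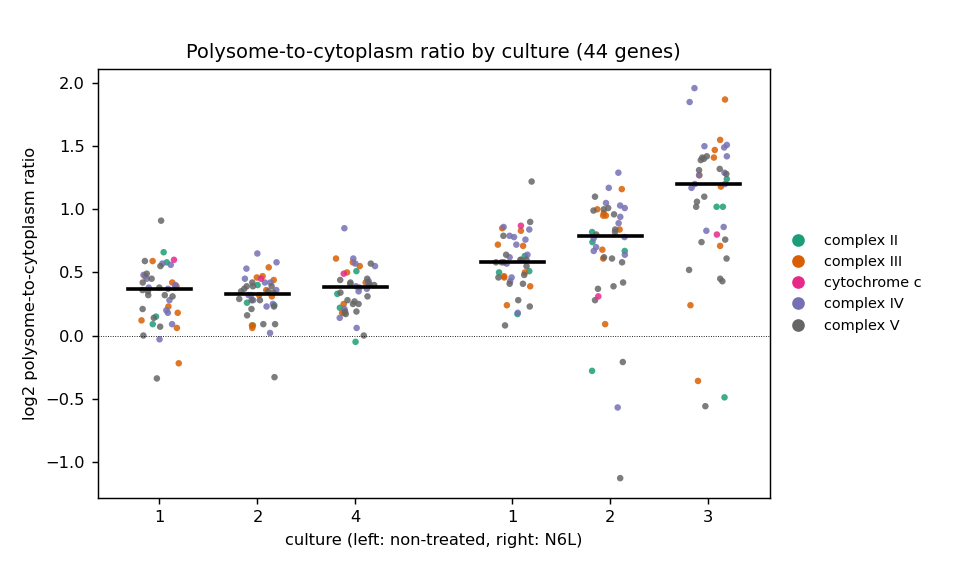
Log2 polysome-to-cytoplasm ratio (vertical axis) of the 44 genes in each culture (horizontal axis, non-treated cultures 1, 2 and 4 on the left and N6L cultures 1, 2 and 3 on the right). Points are genes coloured by complex and black bars are medians, which are 0.33 to 0.38 without N6L and 0.58, 0.79 and 1.20 with it.

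The translational index (TI) is the polysome-to-cytoplasm log2 ratio with N6L minus that without, tested as 1 contrast. It asks whether the ratio itself changed. It passed for 0 of the 44 genes with edgeR, as for 0.0% of all genes, and for 0 with DESeq2. Unadjusted p-values under 0.05 were found for 6 genes with edgeR (7.73% of all genes) and for 6 with DESeq2. With the lysate as a block, which these paired fractions allow, 29 were under it (21.6% of all genes) and still 0 passed, the smallest FDR being 0.196. The median index was 0.56 on the log2 scale against 0.01 over all genes, and it was 0.12 after the adjustment for length and GC content. For 32 genes the ratios of the 3 N6L cultures lay above those of the 3 non-treated ones (15.3% of all genes) and for 0 below (14.4% of all genes). The smallest p that an exact two-sided permutation test of 3 against 3 cultures can give is 0.1.

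The highest indices were those of Cox8a (0.99), Cox6a1 (0.83), Uqcr11 (0.80) and Cox6c (0.79), a small subunit of complex IV. For Cox8a the log2 ratios were 0.09, 0.53 and 0.55 without N6L and 0.86, 1.29 and 1.85 with it, and for Cox6a1 0.37, 0.25 and 0.06 against 0.72, 1.17 and 1.17. Neither pair of groups overlapped (exact permutation p = 0.1 for each). The lowest indices were those of Atp5l (-0.32) and Sdha (-0.23), followed by Cox6a2 (-0.04) and Atp5s (0.00). Sdha had ratios of 0.15, 0.08 and -0.05 without and 0.17, -0.28 and -0.49 with N6L, which overlapped. Sdhd and Cycs, the genes called in both fractions, had indices of 0.26 and 0.15 and overlapping ratios. Atp5b and Atp5a1 had indices of 0.15 and 0.06.

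Partners of these subunits were taken from lists. Of the 6 subunits of complexes III to V encoded in the mitochondrion, only mt-Co1 and mt-Cytb had counts enough to test, and the other 4 were listed at or near 0. These are mRNAs that every cell uses, and as the counting of reads with several matches is not given, the zeros were not read as absence. mt-Cytb, the cytochrome b of complex III, went from 1620 ± 674 to 405 ± 114 CPM in cytoplasm (SD, n = 3 cultures each) and fell by 2.00 on the log2 scale (FDR 0.00548 by edgeR). mt-Co1, a catalytic subunit of complex IV, had a log2 value of -1.10 and did not pass (FDR 0.0559). Mitochondria had been spun out of the lysates, so the levels of both depend on how many remained, which was not measured.

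Of 38 tested assembly factors of complexes II to V, 14 fell in the cytoplasm and 0 rose (13.8% and 14.5% of all genes), with a median log2 value of -0.49. The lowest were Cox17, the copper chaperone of complex IV, at 13.2 ± 5.41 and 4.74 ± 0.0323 CPM (log2 fold change -1.48, FDR 0.00682 by edgeR), Uqcc2 (-1.10) and Cmc2 (-1.10). Cox17 (-1.08) and Cox18 (-0.58), which inserts a complex IV subunit into the membrane, were the 2 that fell in polysomes (3.66% of all genes). Of 13 regulators of nuclear respiratory genes, 2 rose and 2 fell in the cytoplasm, a share close to the 28.3% of all genes that passed in either direction. The coactivator Ppargc1a rose by a log2 fold change of 1.59 from 2.34 ± 1.26 to 7.17 ± 0.586 CPM and Ppargc1b by 1.00, both at low levels. Tfam, which packs and transcribes mitochondrial DNA, and the receptor Esrra fell by 0.47 and 0.60. Gabpa and Nrf1, whose motif letters are shown above, had cytoplasmic log2 values of 0.23 and 0.27 and did not pass.

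Complex I was set beside complexes II to V as the nearest list. Of its 37 tested nuclear subunits, 27 fell in the cytoplasm and 0 rose (median log2 value -0.86), 1 fell in polysomes, and 32 were higher in polysomes than in cytoplasm under N6L. The shares over all genes were 13.8% lower in cytoplasm, 3.66% lower in polysomes and 18.4% higher in polysomes under N6L, so that the count of complex I in polysomes was near that of all genes. Of 77 tested mitochondrial ribosomal proteins, 54 fell in the cytoplasm (median -0.71), 6 fell in polysomes and 61 were higher in polysomes under N6L. A list outside the mitochondrion moved in the same directions. Of 84 tested cytosolic ribosomal proteins, 81 fell in the cytoplasm (median -0.94), 3 fell in polysomes and 73 were higher in polysomes under N6L. The 3 that fell in polysomes were again near the share of all genes. All 3 lists have short transcripts, with medians of 861, 1280 and 774 bases in the order given. The differences between the lists were not tested.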

How the data were processed

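RNA-seq counts of 12 libraries were used, each deposited as 4 technical replicates (48 samples), whose counts were added up, since their spread was close to sampling noise. Per the labels and the methods of the study, the authors purified polyA+ RNA, prepared strand-specific libraries, aligned reads to mm10 with STAR and took gene counts with HTSeq-count 0.5.3. The deposited values are raw counts without normalization. How HTSeq-count treated strand and multiple matches, and with which annotation, is not given in the sources used here. Symbols, coordinates and transcript lengths came from GENCODE vM21 (GRCm38), in which 50376 of 50600 identifiers were found. The length of a gene was that of its lowest-numbered principal transcript of support level 1. The exons of 13 of the 49 genes overlap another gene, for 12 of them on the opposite strand, and their counts are uncertain to that extent (Atp5o shares 35.6% of its exonic bases).

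After a filter on low counts (filterByExpr), 13889 genes remained. They were scaled by TMM, and a model with 1 mean for each fraction and treatment over the 12 libraries, with no block, was fitted by glmQLFit and tested by glmQLFTest (edgeR 4.0.16, R 4.3.3), with Benjamini-Hochberg adjustment over all genes tested and a limit of 0.05. Standard errors were derived from the log2 value and its F statistic. Ratios per culture are log2 ratios of CPM with a prior count of 2. The fit was tested on simulated counts. Both libraries of a culture share a lysate, and the correlation of their deviations from their own group means was 0.364, 0.452 and 0.645 in the non-treated cultures and 0.0368, 0.199 and 0.230 in those with N6L. Equal culture numbers across treatments were not taken as pairs in the main fit. For cultures 1 and 2 the same correlation across treatments was 0.228 and 0.0455 in cytoplasm and 0.296 and 0.00756 in polysomes. The adjustment for length and GC content used offsets per library from natural splines with 4 degrees of freedom. DESeq2 1.42.0, RLE size factors, library totals alone, other filters, left-out cultures and technical replicates, the groups compared alone, blocks and offsets were alternatives. The offsets from the shortest principal transcript were added after the data were seen.

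Genes named are the 4 highest and 4 lowest in each comparison, complex II, Cyc1, Cycs, the most abundant per kilobase in each complex, the isoform groups and genes called against the prevailing direction. Other genes that appear (Uqcrfs1, Uqcrb, Atp5d, Cox5a, Atp5f1 and the unpassed core subunits) were named after their values were seen. The genes, lists and tests were chosen with earlier results of these data known. No protein sequences were used here.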

Additional observations from a re-analysis of the deposited data

How the results depend on the processing

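The number of the 44 genes called in the cytoplasm, 28, was 11 to 27 with one culture left out, 11 (9 lower, 2 higher) with length and GC offsets and 12 (10 lower, 2 higher) with offsets from the shortest principal transcript. The median log2 value of -0.78 became -0.21 and -0.22 with these 2 offsets. For none of the counts with one culture left out, here and below, was the share of all genes counted. In polysomes, where 2 genes were called, 4 passed with DESeq2 and with every gene kept, 5 with either kind of offset, 1 with only the groups compared, and 0 to 4 with one culture left out. For polysomes against cytoplasm in non-treated cultures, the median of 0.34 was 0.26 with library totals alone, 0.11 and 0.10 with the offsets, 0.11 with the replicate block by lysate and offsets, and from 0.32 to 0.37 with one culture left out. That block with offsets called 1 gene. In N6L cultures the 35 calls became 10 with either kind of offset, 21 with the replicate block and offsets, and 7 to 39 with one culture left out. The median of 0.93 there became 0.28, 0.24 and 0.27 with offsets, with offsets from the shortest transcript and with block and offsets. The median index of 0.56 became 0.12, 0.11 and 0.11 in the same order. With library totals alone, the median cytoplasmic value over all genes moved from 0.04 to 0.19. The replicate block by lysate moved no number of genes called at the FDR limit by more than 1.5 times (39 in place of 35 in N6L cultures), but raised those with an unadjusted p under 0.05 from 3 to 26 for the ratio without N6L and from 6 to 29 for the index. The block by culture number gave 32 cytoplasmic calls, all lower, and thus not Sdhd.

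Signs of some genes turned, nearly all without a call. In the cytoplasm, with offsets and with offsets from the shortest transcript, Atp5l was at 0.42 and 0.40, Uqcrh at 0.14 and 0.12, Cox7a1 at 0.50 and 0.49 and the called Atp5g2 at 0.35 and 0.34, Cox7a2 was at 0.01 with offsets alone, and Atp5l at 0.09 in the block by culture number.
For polysomes against cytoplasm in non-treated cultures, Atp5s was at 0.10 with both offsets and 0.09 with block and offsets, Sdha at -0.01 with library totals alone, and Uqcrc2 between 0.00 and 0.08 in 8 settings (0.00 with RLE, DESeq2 and the lysate block, 0.01 without a filter, 0.03 with technical replicate a, 0.07 and 0.08 with the offsets, 0.08 with block and offsets). In N6L cultures, Uqcrc2 was at -0.11 with library totals, -0.02 without a filter, 0.00 with the groups compared alone and -0.01 in the lysate block, Atp5s and Sdha were at 0.02 and 0.01 with the shortest transcript, and Atp5l was at -0.07 with technical replicate a, -0.29 and -0.28 with the offsets and -0.29 with block and offsets. For the index, Atp5s was at 0.02 with RLE and DESeq2, and without the technical replicates of conflicting labels Cox6a2 was at 0.19 and Atp5s at 0.13. With one culture left out the ranges were -0.73 to 0.13 (Atp5l, cytoplasm), -0.05 to 0.39 and -0.17 to 0.84 (Uqcrc1 and Cox7a1, polysomes), -0.12 to 0.12 and -0.11 to 0.16 (Uqcrc2, ratio without and with N6L), -0.25 to 0.92 (Atp5l, ratio with N6L), and -0.76 to 0.44, -0.73 to 0.43 and -0.14 to 0.17 (index of Atp5l, Cox6a2 and Atp5s). The cause of these shifts was not tested. The lowest library of 19519911 counts sets the limit for genes of a few CPM, such as Cox6a2, Cox7a1, Atp5l and Atp5s.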
